A study of Homo sapiens with 9 samples.

Results

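The transcriptome described here is that of the 3 control libraries of an RNA-seq series of 9, taken by their column names in the table of TPM values. TPM is a transcript abundance corrected for length and scaled to the same total in each library, so levels of different genes can be set side by side per length. The labels give the line as HepG2, a human line established from a liver tumour, and the genotype as WT. The protocol calls the control cells HepG2-pLVX, where pLVX is a lentiviral vector, and does not say what the vector carried. Cells were grown in high-glucose DMEM with FBS, lysed in Trizol and sequenced by a company. The other 6 libraries, from lines overexpressing NFE2L1 or NFE2L1DC, are not used here. Nothing in the labels says whether the 3 libraries came from separate cultures, so the standard deviations (SD, n = 3 throughout) may be technical. With a single group described, no test was made.

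Hepatocytes are known for a secretory programme that fills the plasma with albumin, transport proteins, clotting factors and apolipoproteins, and for nitrogen disposal through the urea cycle. A network of transcription factors that includes HNF4A and the FOXA proteins is known to drive these genes. HepG2 cells are known to keep much of that secretory programme and to make the fetal plasma protein alpha-fetoprotein.

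The table listed 58174 genes. A gene is called expressed where it reached 1 TPM in each of the 3 libraries, which held for 12386 genes, or 21.3% of all, while 55% of all genes were listed at 0 in the 3 libraries and 2.46% averaged 100 TPM or more. Among 19762 protein-coding genes 10526 were expressed, and this 53.3% is the background against which every gene list is read. The median protein-coding gene had a mean of 2.27 TPM. The number of genes at 1 TPM or more was 13057, 13072 and 13950 in replicates 1, 2 and 3. Read counts are not in the table, so depth is unknown and no detection limit can be given. Replicate 3 stood apart from the other two in a way that moved with GC content, described at the end, and values without it are given where they differ.

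The defining plasma proteins went against the label, while several liver enzymes were abundant. Of the 7 markers given for these cells, 5 were abundant and 2 were absent or nearly so. KRT8, a keratin of simple epithelia, was at 1351, 1429 and 1058 TPM in replicates 1, 2 and 3. Its partner KRT18 was at 994, 998 and 805 TPM. VIM, the intermediate filament protein of mesenchymal cells, was at 754, 838 and 823 TPM, so keratins and vimentin were abundant side by side in every library. CPS1, which makes carbamoyl phosphate at the entry of the urea cycle, was at 779, 782 and 1192 TPM, and HPD, the second enzyme of tyrosine breakdown, at 560, 585 and 484 TPM. ALB, which encodes albumin (ENSG00000163631, chromosome 4, 73397114 to 73421412), was listed at 0 in all 3 libraries. HNF4A was at 0.0886, 0.0459 and 0.0452 TPM. In bulk RNA, fewer cells of a type and less RNA per cell cannot be told apart. The samples are called the libraries labelled HepG2, and no other cell type name is given to them.

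**Figure D1:**
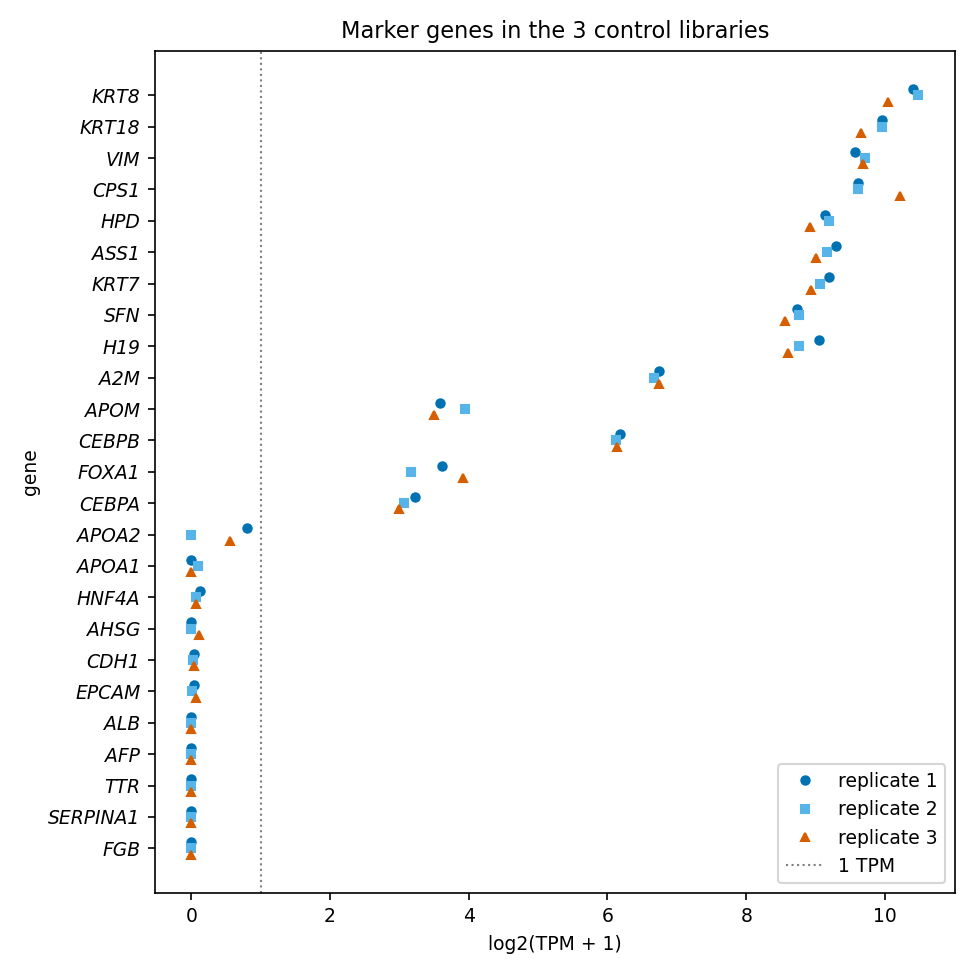
Levels of 25 genes in the 3 control libraries on a log2(TPM + 1) axis, 1 symbol per library, with a dotted line at 1 TPM. KRT8, KRT18, VIM, CPS1, HPD, ASS1, KRT7, SFN and H19 sit between 378 and 1429 TPM in every library, while all genes from APOA2 down lie under 1 TPM.

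Genes for the secreted products of the hepatocyte were mostly at or near 0. Of 43 genes for hepatocyte plasma proteins, 4 were expressed, against 53.3% of protein-coding genes, and 26 were listed at 0 in all 3 libraries, against 25.2% of protein-coding genes. Those at 0 included ALB, the thyroid hormone carrier TTR, the iron carrier TF, the protease inhibitor SERPINA1 and the fibrinogen chains FGA, FGB and FGG. AHSG, a plasma glycoprotein of the fetal and adult liver, was listed at 0, 0 and 0.0813 TPM. The exception was A2M, a broad protease inhibitor that other cells than hepatocytes also make, at 106, 101 and 106 TPM. Its 3 values lay close together, and it was the only member above 100 TPM. The coagulation factor F12 was at 10.9, 12 and 11.3 TPM and the complement protein C3 at 8.90, 7.27 and 7.98 TPM. VTN, an adhesion protein of plasma, averaged 2.14 ± 0.861 TPM.

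Apolipoproteins, which carry lipid in plasma, were as sparse. APOM was the single expressed member of 16, at 11.1, 14.4 and 10.3 TPM. In all 3 libraries 8 members were listed at 0, against 25.2% of protein-coding genes. Among these 8 were APOB and MTTP, which are both needed to build very low density lipoprotein. APOA1, the main protein of high density lipoprotein, was listed at 0, 0.0683 and 0 TPM, and APOA2 at 0.751, 0 and 0.479 TPM. Over both lists, 5 of 59 genes were expressed and 34 were listed at 0. The 59 genes summed to 145, 140 and 143 TPM per library, and to 38.6, 39.4 and 36.4 TPM without A2M.

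The fetal liver genes split. AFP, which encodes alpha-fetoprotein, was listed at 0 in all 3 libraries, as was GPC3, a cell-surface proteoglycan of fetal liver and liver tumours. H19, an imprinted long noncoding RNA, was at 529, 434 and 388 TPM, and its neighbour IGF2, which shares its imprinted domain, at 0.113, 0.0608 and 0.136 TPM. The RNA-binding proteins IGF2BP1, IGF2BP2 and IGF2BP3 averaged 13.8, 6.93 and 6.83 TPM. In all, 5 of the 15 hepatoblast and oncofetal genes were expressed.

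The promoters of ALB and AFP are shown because these adjacent genes on chromosome 4, listed at 0 throughout, are the products for which HepG2 cells are best known. They are taken from RefSeq (GRCh38.p14) and run from 250 bases before the gene start to 50 bases after it, on the plus strand, ALB at chr4:73404037-73404336 and AFP at chr4:73435971-73436270. These RefSeq starts lie 7173 and 5083 bases from those of the GENCODE 29 genes. Capitals mark CCAAT, the letters of a common promoter element known as the CCAAT box, searched on both strands.
ALB: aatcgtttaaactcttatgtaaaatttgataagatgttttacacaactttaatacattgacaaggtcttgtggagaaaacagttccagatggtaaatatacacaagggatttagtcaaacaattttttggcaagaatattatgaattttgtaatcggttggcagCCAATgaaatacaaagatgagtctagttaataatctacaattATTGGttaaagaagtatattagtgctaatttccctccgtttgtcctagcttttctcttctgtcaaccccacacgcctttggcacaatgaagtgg
AFP: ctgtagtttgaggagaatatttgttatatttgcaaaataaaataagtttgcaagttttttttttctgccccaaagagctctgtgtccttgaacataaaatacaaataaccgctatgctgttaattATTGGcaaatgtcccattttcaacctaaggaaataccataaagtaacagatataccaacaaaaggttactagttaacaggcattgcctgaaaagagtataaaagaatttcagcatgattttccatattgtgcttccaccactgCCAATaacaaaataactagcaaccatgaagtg
Matches start 86 and 44 bases before the ALB start, and 125 bases before and 18 bases after the AFP start. CCAAT occurred in 18 of 41 plasma protein and apolipoprotein promoters that the RefSeq table holds (43.9%), in 21 of 63 ribosomal protein promoters (33.3%) and in 9747 of all 27305 promoters (35.7%). This word was picked from 14 searched, after their matches were seen. Of other words known from liver factors, the HNF4 word CAAAGTCCA occurred in 2 of the 41 (4.88%) and in 0.359% of all promoters, and its shorter form CAAAGTC in 5 (12.2%) and in 3.43%. The FOX words TGTTTAC and TGTTTGC occurred in 2 (4.88%) and 5 (12.2%) of the 41, against 3.41% and 3.87% of all promoters. TTGCNNAA, a word of C/EBP factors, occurred in 8 (19.5%) against 10.6%, and TATAAA in 8 (19.5%) against 11.95%. Other words searched are not reported here. A match is a description of letters and not a site in use.

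Of 29 liver transcription factors 13 were expressed (44.8%), not far below the 53.3% of protein-coding genes. In every library 6 of the 29 were listed at 0, as were 25.2% of protein-coding genes. Among these 6 were FOXA2, PROX1, GATA4 and the nuclear receptors NR1H4 and NR1I2, which sense bile acids and foreign compounds. The members present were led by factors that many tissues share. CEBPB, a leucine zipper factor of inflammation and differentiation, was at 71.6, 68.7 and 69.2 TPM, and DBP, an output of the circadian clock, at 81.0, 62.8 and 56.5 TPM. TBX3 averaged 37.9 ± 9.76 TPM, the heterodimer partner RXRA 27.3 ± 2.17 TPM and ATF5 21.6 ± 2.10 TPM. Lower but expressed in all 3 libraries were FOXA1, at 11.3, 7.95 and 14.1 TPM, and CEBPA, at 8.31, 7.41 and 7.0 TPM. Thus FOXA1 and CEBPA messages were measured where those of HNF4A and FOXA2 were at or near 0.

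Hepatic nitrogen metabolism was present in pieces. Of 13 genes of the urea cycle and its glutamate supply, 9 were expressed (69.2%). CPS1 averaged 918 ± 238 TPM over the 3 libraries and 781 TPM without replicate 3, and ASS1, which joins citrulline and aspartate, was at 626, 575 and 513 TPM. ASL, the next enzyme, averaged 25.3 ± 1.10 TPM. OTC, which links CPS1 to ASS1, and ARG1, which releases urea, were both listed at 0 in every library, so the messages of the cycle were abundant for 2 steps and unlisted for 2 others. ARG2, the mitochondrial arginase of other tissues, was at 5.24, 5.70 and 5.09 TPM.

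Tyrosine breakdown had the same broken shape. HPD was high, and FAH, the last enzyme of the route, was at 39.0, 38.3 and 35.1 TPM, with GSTZ1, the step before it, at 42.2, 37.3 and 33.4 TPM. TAT, the first enzyme of tyrosine breakdown, was listed at 0, and HGD, which acts directly after HPD, was listed at 0, 0 and 0.0171 TPM. PCBD1, which helps to recycle the cofactor tetrahydrobiopterin, averaged 149 ± 4.96 TPM. Of the 10 listed genes 7 were expressed. For tryptophan the count was 4 of 10, with QPRT highest at 89.8 ± 6.02 TPM, and the entry enzymes TDO2, IDO1 and IDO2 were all listed at 0. Of 11 methionine genes 7 were expressed, led by AHCY at 301 ± 24.3 TPM.

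Glycolysis was among the most abundant pathways. Of 22 genes 18 were expressed (81.8%), their summed level was 32350, 32216 and 27598 TPM, and together they took 3.07% of all TPM. GAPDH was the most abundant nuclear gene of the whole table, at 14129, 14547 and 12618 TPM. ENO1 averaged 5193 ± 575 TPM, PKM 2405 ± 265 TPM, TPI1 2152 ± 206 TPM and ALDOA 1532 ± 172 TPM. In each of these 5 genes replicate 3 was the lowest of the 3 libraries.

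Pairs of a liver form and a related form of an enzyme were compared, and they were paired after their values were seen, so the count says nothing of liver enzymes at large. In 9 of 11 pairs the other form was higher in every library. The liver form was under 1 TPM in 8 pairs and listed at 0 in 5. PKLR was listed at 0 beside PKM, and MAT1A at 0 beside MAT2A at 286 ± 33.5 TPM. G6PC, which releases glucose from hepatocytes, was listed at 0, while G6PC3, the form of other tissues, averaged 124 ± 46.0 TPM. PCK1 averaged 0.428 ± 0.0796 TPM and its mitochondrial relative PCK2 54.1 ± 2.90 TPM. The 2 pairs with the liver form higher were glycogen phosphorylase, where PYGL averaged 155 ± 22.9 TPM and PYGB 38.4 ± 3.50 TPM, and carnitine palmitoyltransferase, where CPT1A averaged 46.0 ± 1.87 TPM and CPT1B 7.43 ± 0.982 TPM. Of the 18 listed genes of gluconeogenesis and glycogen 11 were expressed (61.1%), 10 of them at a mean of 10 TPM or more. Over protein-coding genes these shares were 53.3% and 33.5%. FBP1, a key enzyme of gluconeogenesis, was listed at 0. PC, which feeds that route from pyruvate, was at 85.2, 76.9 and 77.5 TPM.

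**Figure D2:**
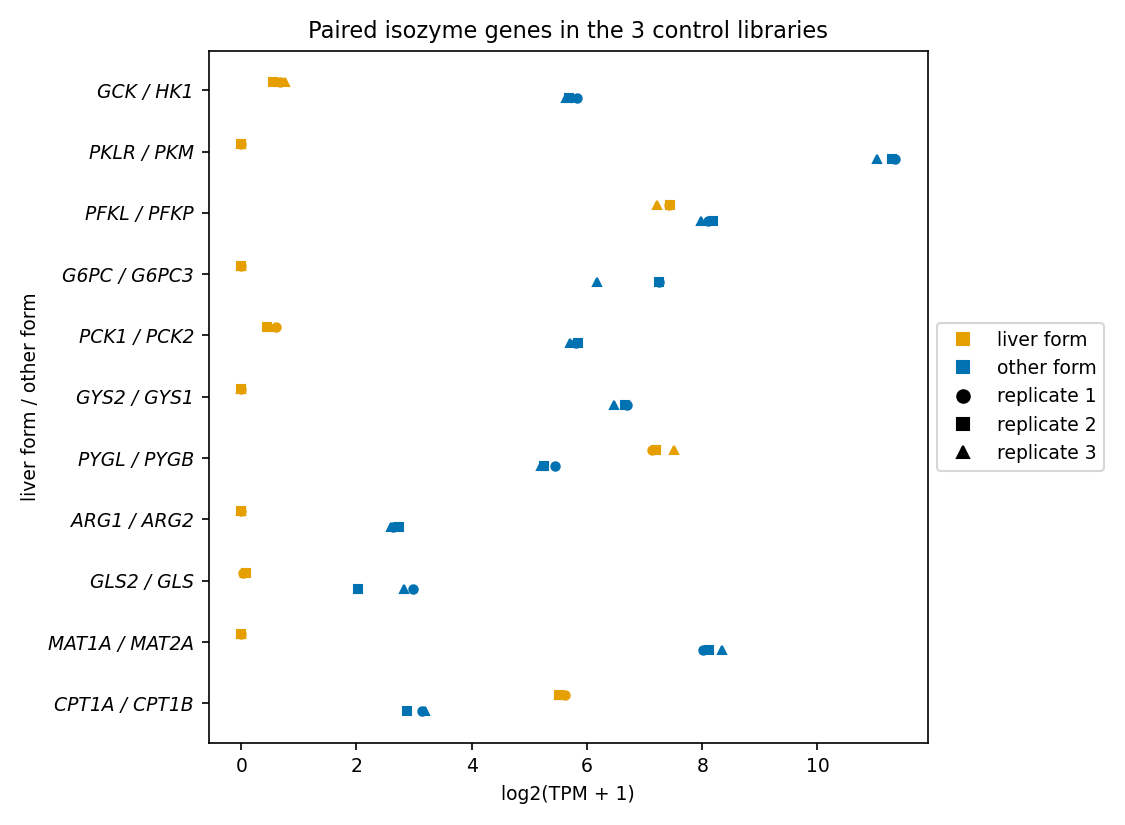
Levels of 11 pairs of related enzyme genes in the 3 control libraries on a log2(TPM + 1) axis, with the form typical of liver in orange and the other form in blue. The blue symbols lie to the right in 9 pairs and the orange ones in the PYGL and CPT1A pairs.

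Core metabolism shared by dividing cells was complete or nearly so. All 24 citric acid cycle genes and all 20 cholesterol synthesis genes were expressed, and none of them had a 0 in any library. MDH2 led the cycle at 347 ± 22.7 TPM, followed by SDHA at 260 ± 34.8 TPM and OGDH at 200 ± 13 TPM. FDPS and FDFT1, which build the cholesterol backbone, averaged 315 ± 30.3 and 217 ± 3.60 TPM. Pentose phosphate and NADPH genes were expressed in 11 of 12 cases, and TKT, which shuttles sugars between that route and glycolysis, was at 1539, 1432 and 1311 TPM.

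Lipid, one-carbon and nucleotide genes followed the same pattern. Fatty acid synthesis had 12 of 14 genes expressed, led by the desaturase SCD at 297, 293 and 329 TPM, with ACLY at 167 ± 9.77 TPM and FASN at 163 ± 26.5 TPM. Fatty acid oxidation had 20 of 22, led by ACADVL at 426 ± 20.7 TPM. Of 23 purine and pyrimidine enzymes 21 were expressed, with IMPDH2, which commits purines to guanine nucleotides, at 650, 626 and 577 TPM. Of 15 serine and one-carbon genes 12 were expressed, with SHMT2 at 398 ± 56.1 TPM. Of 6 ketone body genes 5 were expressed. Iron storage was prominent: the ferritin chains FTL and FTH1 averaged 7030 ± 449 and 4907 ± 531 TPM.

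Bile acid genes and cytochromes P450 stood at the other end. Of 16 genes of bile acid synthesis and transport 3 were expressed (18.8%), and CYP7A1, the rate-limiting enzyme of bile acid synthesis, and SLC10A1, the bile acid importer, were both listed at 0. HSD3B7, an early enzyme of the same route, was the highest at 37.2, 35.5 and 34.5 TPM. Of 26 cytochromes P450 in families 1 to 4 that handle drugs, lipids and vitamins, 3 were expressed (11.5%), against 53.3% of protein-coding genes. Another 14, CYP3A4 among them, were listed at 0, against 25.2% of protein-coding genes. The 3 expressed were CYP2S1, at 9.57, 8.75 and 5.44 TPM, CYP1A1, at 4.28, 3.23 and 3.51 TPM, and CYP2R1, at 2.92, 2.54 and 4.92 TPM. CYP1B1 averaged 1.00 TPM and 0.592 TPM without replicate 3, in which it reached 1.82 TPM. Of the 19 metabolic lists, 15 had a larger expressed share than all protein-coding genes.

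Of 29 conjugating enzymes 14 were expressed (48.3%), near the 53.3% of protein-coding genes. Another 10 were listed at 0 in every library, as were 25.2% of protein-coding genes. The glutathione transferases GSTP1 and GSTO1 were at 1246, 1230 and 1059 TPM and at 1072, 1112 and 879 TPM. GSTA1 and GSTA2, the glutathione transferases of hepatocytes, were listed at 0, as were UGT2B4, UGT2B7, UGT2B10 and SULT2A1. Of 23 alcohol and aldehyde enzymes 14 were expressed (60.9%). AKR1B1, which reduces glucose and aldehydes, was at 360, 363 and 244 TPM, while ADH1A, ADH1B, ADH1C, ADH4 and ALDH1A1 were listed at 0.

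**Figure D3:**
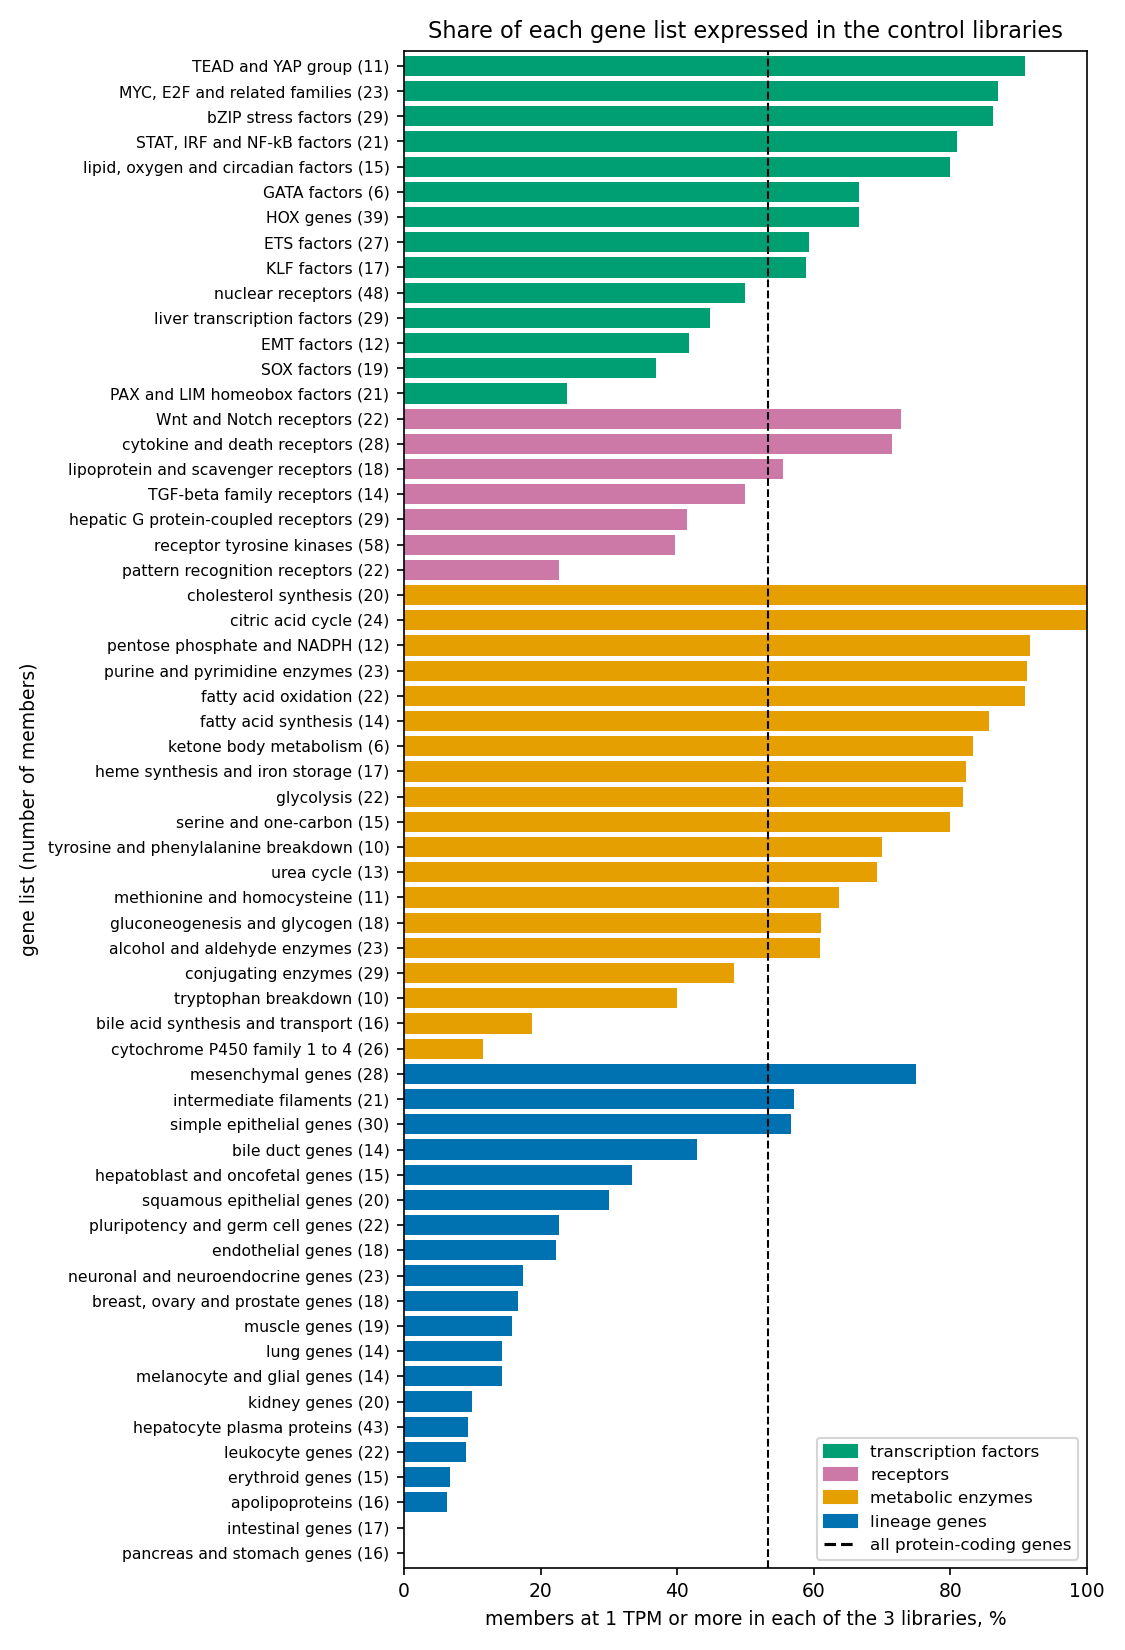
Percent of the members of each list of transcription factors, receptors, metabolic enzymes and lineage genes that were at 1 TPM or more in each of the 3 control libraries, with the number of members in brackets and the 53.3% of all protein-coding genes as a dashed line. Core metabolic lists reach 100%, and the plasma protein, apolipoprotein, cytochrome P450 and most lineage lists lie far to the left of the line.

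The most abundant transcripts were mitochondrial, ribosomal and glycolytic. The 10 highest genes took 15.6%, 15.1% and 15.4% of the TPM in replicates 1, 2 and 3, and 171, 172 and 198 genes held the upper 50% of it. Of the 25 highest, 15 were mitochondrially encoded (12 proteins and 3 tRNAs), 5 were ribosomal proteins and 5 were other nuclear genes: GAPDH, FTL, ENO1, ACTB and FTH1. MT-CO1, a subunit of cytochrome c oxidase, led the table at 30200, 28381 and 28340 TPM, followed by MT-CO2 at 25368 ± 349 TPM and MT-CO3 at 18905 ± 890 TPM. The 13 mitochondrial protein genes together took 15.6 ± 0.317% of TPM and the 79 cytosolic ribosomal protein genes 15.9 ± 0.736%. Short genes and the overlapping pair MT-ATP8 and MT-ATP6 depend on how reads were assigned: MT-ATP8 averaged 17200 and MT-ATP6 4035 TPM, and the sources used here do not state the rule of assignment.

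All 79 ribosomal protein genes were expressed, none with a 0 in any library, and all averaged above 100 TPM, as 6.91% of protein-coding genes did. RPL12 was highest, at 5334, 5555 and 5603 TPM, followed by RPS18 at 5352 ± 466 TPM and RPL35 at 5180 ± 243 TPM. Of 23 translation factors 17 averaged 100 TPM or more, with a list median of 288 TPM against 1727 TPM for ribosomal proteins. The highest were EEF1A1 at 4579 ± 314 TPM and EEF2 at 4944, 3703 and 3484 TPM. Ribosomal protein genes have many processed copies in the genome, and how reads shared with these were counted is not stated. Among cytoskeletal genes ACTB averaged 5172 ± 482, TMSB10 4393 ± 233 and TUBB 3645 TPM. Of 31 cell cycle genes 30 were expressed; CDKN2A, an inhibitor of the cyclin D kinases, was at 218, 257 and 236 TPM, MCM7, a part of the replicative helicase, averaged 279 TPM, and CCND2 was listed at 0.

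Of 20 lineage lists, 3 had a larger expressed share than all protein-coding genes: mesenchymal genes, simple epithelial genes and intermediate filaments. Intermediate filaments, at 57.1%, were not above the background at a threshold of 2 TPM (47.6% against 47.7%). Mesenchymal genes led with 21 of 28 expressed (75%). S100A4, a calcium-binding protein of motile cells, was at 751, 1461 and 1111 TPM, so replicates 1 and 2 differed more from each other than either did from replicate 3. TPM2 and MYL9, of the contractile apparatus, averaged 375 ± 30.1 and 176 ± 9.97 TPM. The collagen gene COL5A1 was at 143, 114 and 123 TPM. CDH11, COL1A2 and POSTN were listed at 0.

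Simple epithelial genes were expressed in 17 of 30 cases (56.7%), near the background share. KRT7, a keratin of ducts, was at 586, 535 and 488 TPM. JUP and PKP3, plaque proteins of desmosomes, averaged 365 ± 27.9 and 132 ± 11.8 TPM. In all, 11 of the 30 members averaged 10 TPM or more, a share near the 33.5% of protein-coding genes. The adhesion genes CDH1 and EPCAM, picked after their values were seen, were near 0. CDH1, which encodes E-cadherin, was at 0.0292, 0.0174 and 0.0245 TPM and EPCAM at 0.0226, 0.00952 and 0.0464 TPM, whereas CDH2, which encodes N-cadherin, was at 11.3, 10.9 and 17.2 TPM. Each library thus carried abundant keratin messages with next to no E-cadherin message. KRT19, another duct keratin, averaged 0.0993 ± 0.0736 TPM, and 6 of 14 bile duct genes were expressed, among them the anion exchanger SLC4A2 at 179 ± 8.43 TPM.

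Squamous epithelial genes were expressed in 6 of 20 cases, but some of these were abundant. SFN, a 14-3-3 protein of keratinocytes, was at 424, 432 and 378 TPM. TRIM29 was at 160, 158 and 140 TPM and KRT17 at 148, 118 and 112 TPM. The basal layer genes KRT5, KRT14 and TP63 were at or near 0, with means of 0.0310, 0.0152 and 0.0870 TPM. Transcription factors of epithelial-mesenchymal transition were expressed in 5 of 12 cases. TWIST2 was the highest at 32.8, 33.5 and 30.5 TPM, followed by TWIST1 at 9.16 ± 2.23 TPM and SNAI1 at 8.31 ± 0.217 TPM. GRHL2 and OVOL1, which maintain epithelial genes, were listed at 0.

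Markers of other tissues were mostly silent, with single genes standing out. No intestinal gene of 17 and no pancreas or stomach gene of 16 was expressed. The intestinal list does not hold ALPI, the intestinal alkaline phosphatase, which averaged 2508 TPM and is described below. Leukocyte genes were expressed in 2 of 22 cases, CD68 at 22.5 ± 0.469 TPM and CSF1R at 2.24 TPM, with PTPRC, the pan-leukocyte marker, listed at 0. Endothelial genes were expressed in 4 of 18 cases, led by EGFL7 at 55.4 ± 5.45 TPM, with KDR and TEK listed at 0. MSLN, a surface protein of mesothelium and several tumours, was at 74.8, 75.4 and 69.6 TPM and the kidney progenitor factor SIX2 at 42.3, 42.4 and 40.5 TPM. The cancer-testis genes MAGEA6 and MAGEA3 were at 99.5, 71.6 and 111 TPM and at 76.1, 49.2 and 84.3 TPM, and PRAME averaged 31.8 ± 1.84 TPM. MAGEA6 and MAGEA3 are near-identical copies, so the split between them is uncertain.

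HOX genes, which record position along the body axis, were mostly expressed, but many of them at low levels. Of 39 genes 26 were expressed (66.7%), against 53.3% of protein-coding genes. At a threshold of 2 TPM the list was still above the share of protein-coding genes, then 47.7%, but by less. Of the 39 genes 10 averaged 10 TPM or more, as 33.5% of protein-coding genes did. Levels were concentrated in the C cluster, which summed to 233 TPM, against 68.8 in B, 59.7 in A and 26.0 in D. HOXC10 alone was at 153, 161 and 178 TPM, and the next, HOXC13, at 24.9, 24.5 and 23.6 TPM. HOXB7 averaged 17.9 ± 3.61, HOXC11 17.5 ± 0.536 and HOXD9 16.4 ± 1.98 TPM. When split after their values were seen, the posterior paralog groups 9 to 13 had 12 of 16 genes expressed and groups 1 to 8 had 14 of 23. Their median levels were 7.38 and 2.14 TPM. The antisense RNA HOTAIR, from the C cluster, was at 10.6, 10.4 and 19.3 TPM.

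**Figure D4:**
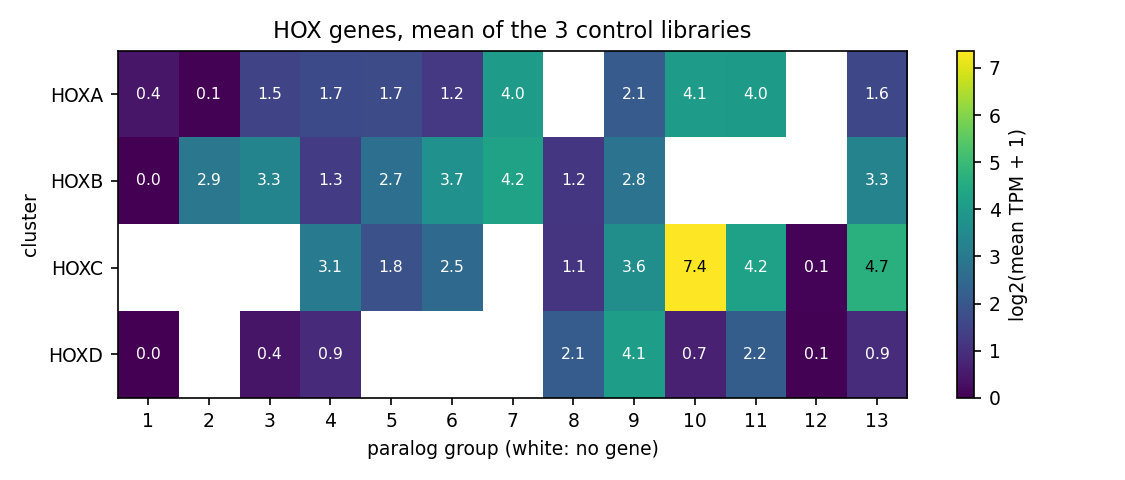
Mean level of each HOX gene over the 3 control libraries as log2(mean TPM + 1), by cluster (rows) and paralog group (columns), with white where no gene exists. HOXC10 stands out at 164 TPM, and the D cluster has the lowest sum.

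Among the 14 transcription factor lists, the leucine zipper group of stress factors had the largest summed mean, at 1386 TPM. Nuclear receptors came next at 670 TPM. The MYC, E2F and related families summed to 579 TPM and the lipid, oxygen and circadian factors to 505 TPM. In the leucine zipper group 25 of 29 were expressed. ATF4, the effector of the integrated stress response, was at 455, 470 and 464 TPM, and JUND at 186, 190 and 183 TPM. XBP1, of the unfolded protein response, was lower in replicate 1, at 112 TPM, than in replicates 2 and 3, at 209 and 190 TPM. NFE2L1, the gene the series is about, was at 104, 81.7 and 64.0 TPM in these control libraries. Its relative NFE2L2 was at 12.1, 13.7 and 36.6 TPM, and its mean of 20.8 TPM was 12.9 TPM without replicate 3.

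The sterol regulators SREBF1 and SREBF2 were at 169, 171 and 162 TPM and at 97.6, 88.5 and 87.7 TPM. YAP1, the co-activator held back by Hippo signalling, was at 103, 103 and 238 TPM, so its mean of 148 TPM rests in part on replicate 3. Its DNA-binding partner TEAD4 was steady at 83.7 ± 2.72 TPM, and 10 of 11 genes of that group were expressed. Of 23 members of the MYC, E2F and related families 20 were expressed. TFDP1, the partner of the E2F factors, was at 137, 139 and 169 TPM. STAT6 and STAT3 averaged 96.5 ± 4.98 and 85.4 ± 7.35 TPM, and 17 of 21 genes of their list were expressed.

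Developmental families differed. GATA factors were expressed in 4 of 6 cases (66.7%). GATA2, a factor of blood, endothelium and trophoblast, was at 67.6, 66.1 and 69.9 TPM, while GATA4, of liver and gut endoderm, was listed at 0. SOX factors were expressed in 7 of 19 cases, led by SOX13 at 28.1 ± 1.73 TPM, and PAX and LIM homeobox factors in 5 of 21, none above 4 TPM on average. ETS factors were expressed in 16 of 27 cases (59.3%), led by ELK1 at 128 ± 5.63 TPM. Nuclear receptors were expressed in 24 of 48 cases (50%). The orphan receptor NR2F6 was highest at 166, 155 and 141 TPM. The oxysterol receptor NR1H2 averaged 74.8 ± 6.13 TPM and RXRB 60.8 ± 4.92 TPM. Of 14 transcription factor lists, 9 had a larger expressed share than all protein-coding genes.

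Of 7 receptor lists, 3 were above the background share of 53.3%. One of the 3, lipoprotein and scavenger receptors, with 10 of 18 expressed (55.6%), lay below it at a threshold of 0.5 TPM or by the mean. SCARB1, the receptor for high density lipoprotein, was the most abundant listed receptor, at 377, 343 and 328 TPM. TFRC, which imports transferrin, was at 74.1, 73.6 and 175 TPM, with replicate 3 far above the other two. The hepatocyte galactose receptor was missing, with ASGR1 at 0.0961, 0.0547 and 0.0761 TPM and ASGR2 listed at 0.

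Death and cytokine receptors were expressed in 20 of 28 cases. TNFRSF1A, the main receptor for tumour necrosis factor, was at 194, 176 and 165 TPM, and LTBR was among the steadiest genes of the table at 124, 124 and 125 TPM. TNFRSF12A and TNFRSF10B averaged 113 ± 12.8 and 102 ± 13.4 TPM. GHR, the growth hormone receptor of liver, was listed at 0. Of 58 receptor tyrosine kinases 23 were expressed (39.7%), against 53.3% of protein-coding genes, and 16 were listed at 0, near the protein-coding share of 25.2%. AXL, at 56.6, 48.7 and 50.4 TPM, DDR1, at 48.3 ± 4.42 TPM, ROR2, at 44.0 ± 2.29 TPM, and ERBB2, at 43.4 ± 2.54 TPM, were the highest and lay within a narrow band.

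Wnt and Notch receptors were expressed in 16 of 22 cases, led by the Wnt co-receptor LRP5 at 68.0 ± 5.08 TPM. ENG, a co-receptor for ligands of the TGF-beta family, led its list at 66.1 ± 3.88 TPM, ahead of TGFBR2 at 15.4 ± 5.81 TPM. Of 29 G protein-coupled receptors listed for hepatic signalling 12 were expressed, with the chemokine receptor CXCR4 at 64.3, 67.1 and 61.8 TPM. Pattern recognition receptors were the sparsest receptor list, with 5 of 22 expressed. TMEM173, the cytosolic DNA sensing adaptor, was highest at 19.7 ± 0.894 TPM, and TLR1, TLR2, TLR5, NLRP3 and AIM2 were listed at 0.

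Outside the lists, a short stretch of chromosome 2 held some of the most abundant nuclear transcripts, chosen after their values were seen. ALPI, the intestinal alkaline phosphatase (chromosome 2, 232456123 to 232460032 on GRCh38), was at 2642, 2509 and 2372 TPM. PRSS56, a serine protease gene known from the eye (232520463 to 232525716), was at 2902, 2756 and 2420 TPM. Among nuclear genes PRSS56 ranked 32 and ALPI 36, in the range of ribosomal proteins. ALPP, the placental alkaline phosphatase, was at 492, 470 and 431 TPM and its neighbour ALPPL2, now named ALPG, at 20.1, 19.6 and 14.6 TPM. ECEL1, which lies between ALPI and PRSS56, averaged 0.525 ± 0.231 TPM, and CHRND, directly after PRSS56, 12.7 ± 0.727 TPM. High and low genes thus alternated along 205111 bases with 15 annotated genes, of which 4 averaged above 100 TPM. ALPL, the form of liver, bone and kidney on another chromosome, was at 0.803, 0.785 and 0.829 TPM.

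The 4 promoters of this stretch are shown because 3 of them belong to duplicated genes whose levels differed widely. They are RefSeq GRCh38.p14 sequences, all on the plus strand, from 250 bases before to 50 bases after the gene start: ALPP at chr2:232378501-232378800, ALPG at chr2:232406594-232406893, ALPI at chr2:232455903-232456202 and PRSS56 at chr2:232520138-232520437. The RefSeq starts differ from those of GENCODE 29 used for the gene positions above, by 217 bases for ALPP, 1 for ALPG, 30 for ALPI and 75 for PRSS56. Capitals mark the longest stretch that ALPP, ALPG and ALPI share, and in PRSS56 the TATA box word TATAAA.
ALPP: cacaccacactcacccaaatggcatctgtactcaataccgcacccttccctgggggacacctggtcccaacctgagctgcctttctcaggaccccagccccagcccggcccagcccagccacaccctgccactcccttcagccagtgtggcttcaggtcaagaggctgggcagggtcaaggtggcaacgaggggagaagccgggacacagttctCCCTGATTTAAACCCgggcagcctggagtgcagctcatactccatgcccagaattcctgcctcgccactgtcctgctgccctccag
ALPG: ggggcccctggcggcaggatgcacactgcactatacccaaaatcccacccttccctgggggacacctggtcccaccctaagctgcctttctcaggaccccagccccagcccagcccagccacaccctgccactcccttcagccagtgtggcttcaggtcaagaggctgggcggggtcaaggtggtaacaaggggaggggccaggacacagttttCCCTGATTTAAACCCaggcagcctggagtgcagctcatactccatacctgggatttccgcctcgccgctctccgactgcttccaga
ALPI: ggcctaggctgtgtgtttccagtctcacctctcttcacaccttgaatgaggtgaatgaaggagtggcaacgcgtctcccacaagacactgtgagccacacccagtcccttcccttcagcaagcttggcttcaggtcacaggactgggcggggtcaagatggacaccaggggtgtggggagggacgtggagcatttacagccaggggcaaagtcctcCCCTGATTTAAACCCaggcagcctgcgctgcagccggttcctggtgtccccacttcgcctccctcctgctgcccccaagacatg
PRSS56: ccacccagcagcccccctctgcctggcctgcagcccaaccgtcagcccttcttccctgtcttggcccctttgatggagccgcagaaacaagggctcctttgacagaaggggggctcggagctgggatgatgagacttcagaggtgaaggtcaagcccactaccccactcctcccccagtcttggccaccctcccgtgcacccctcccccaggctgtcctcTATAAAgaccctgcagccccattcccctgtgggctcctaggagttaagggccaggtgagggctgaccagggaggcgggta
The shared 15 bases, CCCTGATTTAAACCC, start 36 bases before the start of ALPP and ALPG and 34 bases before that of ALPI, and of all 27305 promoters these were the 3 that hold them. TATAAA starts 30 bases before the PRSS56 start and is found in 3264 of all promoters (11.95%). Over the 300 bases ALPP and ALPG were identical in 82.7% of aligned positions, ALPP and ALPI in 59.8% and ALPG and ALPI in 58.4%. The longest transcripts were identical in 76.1%, 68.7% and 80.9% of aligned positions in the same order, differences in end length included. Reads from the regions they share could be assigned to any of them, so the split between ALPP, ALPG and ALPI is uncertain.

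Replicates 1 and 2 agreed more closely than either did with replicate 3. Over 14452 genes at 1 TPM or more in at least 1 library, 92.4% lay within 1.5-fold between replicates 1 and 2 on the log2(TPM + 1) scale, 70.4% between 1 and 3 and 71.5% between 2 and 3. The genes apart by more than 2-fold numbered 304, 1274 and 1156. Pearson correlations across genes, which are not independent replicates, were 0.987, 0.973 and 0.974. Replicate 3 was the outlying value of the 3 in 8015 genes (55.5%), replicate 1 in 23.2% and replicate 2 in 21.3%. Replicate 3 lay more than 2-fold above both others in 574 genes, against 41 for replicate 1 and 49 for replicate 2. It lay more than 2-fold below both in 57 genes, near the 63 and 60 of replicates 1 and 2.

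The deviation of replicate 3 from the mean of replicates 1 and 2 ran with GC content. Over 10526 expressed protein-coding genes the Spearman correlation with transcript GC content was -0.67, given as a description across genes. When the genes were cut into 10 equal bins, the median deviation was 0.75 on the log2(TPM + 1) scale in the bin with the lowest GC content and -0.09 in that with the highest. Replicates 1 and 2 differed by medians of -0.06 and 0.07 in the same bins. With transcript length the correlation was 0.34, and the median deviation went from -0.07 in the bin of the shortest transcripts to 0.51 in that of the longest. For replicate 1 minus replicate 2 the length correlation was 0.17, with medians of -0.05 and 0.08 in the same bins. Over genes at 10 TPM or more the 2 length correlations were close, at 0.26 for replicate 3 and 0.24 for replicate 1 minus replicate 2. The genes named above with high values in replicate 3, such as YAP1, TFRC, NFE2L2 and CPS1, carry that difference in their SD. Whether GC content had a part in any of these single values was not tested.

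**Figure D5:**
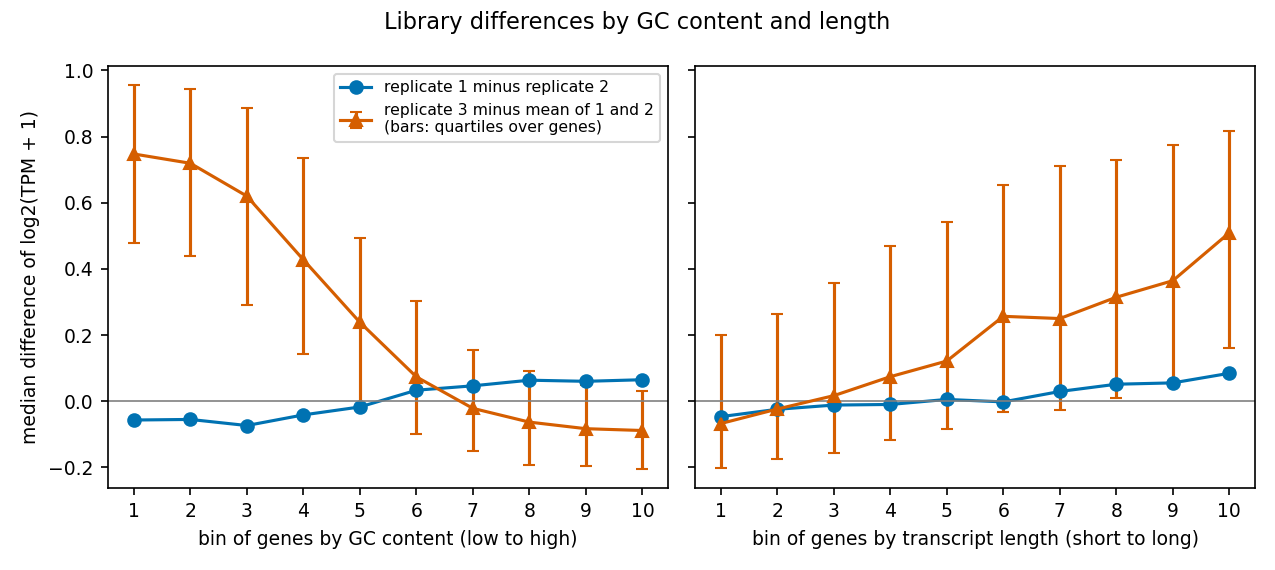
Median difference of log2(TPM + 1) between libraries in 10 equal bins of expressed protein-coding genes, ordered by GC content (left) and by transcript length (right). The orange line, replicate 3 minus the mean of replicates 1 and 2 with quartiles over genes as bars, falls from 0.75 to -0.09 with GC content and climbs to 0.51 with length, while the blue line, replicate 1 minus replicate 2, stays within 0.1 of 0.

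Single genes ranged from near identity to discord among the 3 libraries. Among protein-coding genes with a mean of 10 TPM or more, the smallest coefficient of variation was that of IDH3B, a subunit of the citric acid cycle enzyme isocitrate dehydrogenase, at 82.3, 82.2 and 82.3 TPM. APTX, a DNA repair protein, was at 39.9, 40.0 and 40.0 TPM. The largest was that of AL132780.3, listed at 0, 49.5 and 0 TPM, followed by AC011511.4 at 1.47, 62.6 and 1.54 TPM. PRNP, which encodes the prion protein, was at 12.4, 12.2 and 70.2 TPM and RAB31, a vesicle traffic protein, at 11.6, 10.4 and 60.8 TPM, so both rested on replicate 3, while RNF4 was high in replicate 2 at 13.4, 65.4 and 16.4 TPM. Of the 10 genes with the largest coefficient 8 overlap another gene on the same strand, and of the 10 with the smallest 1 does, against 2130 of the 6620 protein-coding genes with a mean of 10 TPM or more (32.2%). In 5 of the 10 with the largest coefficient a same-strand overlapping gene averaged 10 TPM or more, against 308 of the 6620 (4.65%). Among these 5 was the joined name SENP3-EIF4A1, listed at 0, 37.5 and 65.6 TPM. The labels and files do not say how reads in such overlaps were assigned.

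Leaving out a library can only add expressed genes, and replicate 3, which had the most genes at 1 TPM or more, was seldom the one that kept a gene below the threshold. Without it, 65 of the 67 lists had the same number of expressed genes and 2 gained 1. The background was then 53.5%. The largest move of a list was 3.45 percentage points without replicate 3, 8.33 without replicate 1 and 7.69 without replicate 2. Of the plasma protein and apolipoprotein genes, 4 and 1 were expressed in both settings.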

How the data were processed

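The authors deposited TPM values for 58174 genes in 9 libraries; the TPM columns of the 3 control libraries were used and the other 6 were left out. Per the submitters' processing notes CASAVA and the GRCh38 build were used. The sources used here do not give the aligner, quantifier, annotation, strandedness or filters, and depth is unknown.

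Of the gene identifiers 57836 matched GENCODE 29, which gave biotypes, positions, overlaps and the GC content and length of the longest transcript. All 1388 symbols in 67 gene lists were found; 5 had more than 1 identifier and took the one that GENCODE 29 names so. Genes at 1 TPM or more in each control library were called expressed. Agreement was the share of genes within 1.5-fold on log2(TPM + 1). Only the agreement and bin steps were tested on simulated data. That agreement test used the more abundant genes and added nothing to TPM before the logarithm, unlike the setting used here. The list shares, gene overlaps, enzyme pairs and promoter counts were not tested in this way. Python 3.11.15, pandas 2.3.3, SciPy 1.17.1 and Biopython 1.88 (global alignments) were used.

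The members and lists were chosen with earlier results of these data known. Single genes were named by a rule: the 25 highest means, the 5 highest of a list, members listed at 0, genes that define HepG2, and the 10 largest and smallest coefficients of variation at a mean of 10 TPM or more. Other genes, such as the alkaline phosphatases, CDH1, EPCAM, FOXA1, CEBPA, the enzyme pairs and the HOX split, and the promoter words were chosen after values were seen. Besides the 14 words searched in whole promoters, 7 pyrimidine words near ribosomal gene starts were searched and are not reported. Some genes that the rule would name, and the promoter words and enzyme pairs that need them, are not reported here.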

Additional observations from a re-analysis of the deposited data

How the results depend on the processing

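Some gene lists changed side of the share over all protein-coding genes: TGF-beta family receptors (now above it) and lipoprotein and scavenger receptors (now below it) at 0.5 TPM and by the mean, the former also without replicate 2, and 4 lists at 2 TPM, namely KLF factors, conjugating enzymes, intermediate filaments, and metallothioneins and selenoproteins; the other lists kept their side under the alternatives run. The number of expressed genes was 13898 at 0.5 TPM, 10662 at 2 TPM and 13477 by the mean, against 12386, and lay between 12532 and 12748 with 1 library left out. The median list had 57.1% of its members expressed, 61.9% at 0.5 TPM or by a mean of 1 TPM, 50% at 2 TPM, and between 57.1% and 60% with 1 library left out. Rescaling over nuclear protein-coding genes leaves out the mitochondrial genes and multiplied the mean TPM of the genes kept by 1.30. The 10 highest of the genes kept, a different set, then held 8.01% of TPM, and ribosomal proteins 20.6%. Agreement moved with the genes and the pseudocount. For replicates 1 and 2, 1 and 3, and 2 and 3 it was 86.0%, 62.6% and 64.3% with a pseudocount of 0.1. It was 94.8%, 82.4% and 82.9% over all genes above 0, and 94.8%, 77.1% and 78.6% over genes at 10 TPM or more. Over all genes above 0 the numbers apart by more than 2-fold stayed at 304, 1274 and 1156. With a pseudocount of 1, genes under 1 TPM in every library cannot differ by more than 2-fold. The higher shares in that setting therefore do not show that low genes agree better. The difference in the deviation of replicate 3 between the last and first of 10 bins was -0.84 by GC content and 0.58 by length, and -0.64 and 0.29 over genes at 10 TPM or more. The cause of the other moves was not tested. With 1 library left out, shares stayed between 15.3% and 15.5% for the 10 highest genes, 15.5% and 15.8% for mitochondrial proteins and 15.5% and 16.3% for ribosomal proteins; a mean of 3 cannot move by more than its SD in this way, so these say little of stability. Among genes named in the text at 1 TPM or more, those whose mean moved by over 1.5 times without replicate 3 were CYP1B1 (0.592 TPM), MALAT1 (3.00), NFE2L2 (12.9), PRNP (12.3), RAB31 (10.98) and SENP3-EIF4A1 (18.7), and without replicate 2 AC011511.4 (1.51), RNF4 (14.9) and AL132780.3 (0). Without a known depth, values near 0 have no limit of error. No paired analysis was possible because a single group is described.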

Other observations

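Among 20 long noncoding RNAs of a list that does not hold H19, the highest were hosts of small nucleolar RNAs. GAS5 was at 339, 302 and 304 TPM, and SNHG6 averaged 176 TPM, SNHG1 113 TPM and SNHG8 71.4 TPM. The nuclear RNAs MALAT1 and NEAT1, named after their values were seen, were highest in replicate 3: MALAT1 was at 2.82, 3.18 and 14 TPM and NEAT1 at 28.0, 27.5 and 51.0 TPM. MEG3, an imprinted RNA, was listed at 0. Of 20 long noncoding RNAs 14 were expressed.

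By annotated class, protein-coding genes held 92.8% of TPM and the 22 mitochondrial tRNA genes 2.54%. Processed pseudogenes held 1.42%, with 378 of 10178 expressed. These copies resemble their parent genes, and the labels do not say how shared reads were counted.

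Metal and peroxide defence genes were expressed in 8 of 16 cases. MT2A, a metal-binding metallothionein, was at 452, 508 and 477 TPM and MT1E at 74.5, 85.0 and 94.3 TPM, whereas MT1G, MT1H and MT1M were listed at 0. GPX4, which reduces lipid peroxides, averaged 403 TPM and GPX1 367 TPM.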
